A study of Mus musculus with 2 samples.

Results

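The genes described here encode the sarcomere and contractile apparatus of striated muscle. They are 45 genes fixed by name, of 18193 genes on the array, and were found through the platform annotation as 86 probe sets assigned to a single gene, with all 45 matched. Where a gene had several probe sets, its level and difference are those of the probe set with the highest mean of both arrays. The tested cells were primary myoblasts kept for 4 hours in a low-serum medium, DMEM with 2% horse serum, to which 100 ng/ml of Wnt3a had been added, and the control cells had the same medium alone. Both came from newborn Sv129 mice and grew on laminin and collagen, and the labels do not give how many animals or cultures stood behind each. There was 1 array per condition, so no value has a replicate, no test was possible and the number of arrays limits the precision.

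The sarcomere is the repeating unit of a myofibril. Thick filaments of myosin pull on thin filaments of actin, tropomyosin and troponin, and titin, Z-disc and M-band proteins hold the filaments in register. Many of these proteins exist as embryonic, fast and slow isoforms encoded by separate genes, and proliferating myoblasts switch many of them on when they leave the cell cycle and fuse. Wnt3a is a secreted protein that activates β-catenin signalling.

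All 10 myoblast markers examined reached the floor of 6 on the log2 scale that is used here for measured genes (an intensity of 63). They were Myod1, Myf5, Pax7, Myog, Cdh15, Chrna1, Itga7, Ncam1, Cav3 and Vcam1. Of the 18193 genes on the array 11397 reached this floor. Axin2, a textbook Wnt target, stood at 10.25 with Wnt3a and at 6.64 in the control, and its dimmer probe set at 6.03 with Wnt3a and at 4.31 in the control. Levels are log2(intensity + 1) and differences are Wnt3a minus control on that scale. Of the 10 myoblast markers 5 were higher with Wnt3a, against 47.3% of all measured genes, and 5 lower. At least 1.2-fold higher were 2 (Myf5 and Cav3) and at least 1.2-fold lower 2 (Myog and Vcam1), against 4.04% and 4.55% of measured genes. Vcam1 had the largest difference, at 9.97 with Wnt3a and 10.60 in the control (-0.63, and -0.60 and -0.51 on its other probe sets). In bulk RNA, fewer cells of a type and less RNA per cell cannot be told apart. Every difference is relative to the other genes of the array, whose median was near 0. The 42 spike-in probe sets were all lower on the Wnt3a array, and scaling on them would add 0.19 to every difference. That scaling would make the difference of each of the 35 measured members, on its probe set with the highest mean, positive, as it would for 90.4% of all measured genes. At least 1.2-fold higher would then be 12 members, against 26.6% of all measured genes.

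The contractile genes differed little between the arrays. Of the 45 members 35 were measured, and 20 of these were higher with Wnt3a and 15 lower, against 47.3% of all 11397 measured genes that were higher. Their median difference was 0.010 and their mean 0.041, against a median of -0.0057 over all measured genes. The desmin gene Des and the fast myosin gene Myh1 were at least 1.2-fold higher, which was the case for 4.04% of all measured genes. No measured member was 1.2-fold lower, against 4.55% of measured genes. At 1.1-fold, 8 members were higher and 2 lower, against 13.4% and 16.7% of measured genes. None reached 1.5-fold, while 0.886% of measured genes were higher and 0.342% lower by that much. Only Myh1 lay outside the range from -0.33 to 0.33 that holds the central 95% of measured genes of any brightness. At like brightness this differed. For genes with a mean level from 6 to 8 the central 95% ran from -0.36 to 0.41, and Myh1 (0.35) lay inside it. For genes with a mean from 10 to 12 it ran from -0.28 to 0.25, and Des (0.32) lay outside it. The pooled SD between probe sets of a gene, the only repeat in these data, was 0.12 (5084 genes with at least 2 probe sets at the floor), and it holds no noise between cultures or hybridisations.

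**Figure D1:**
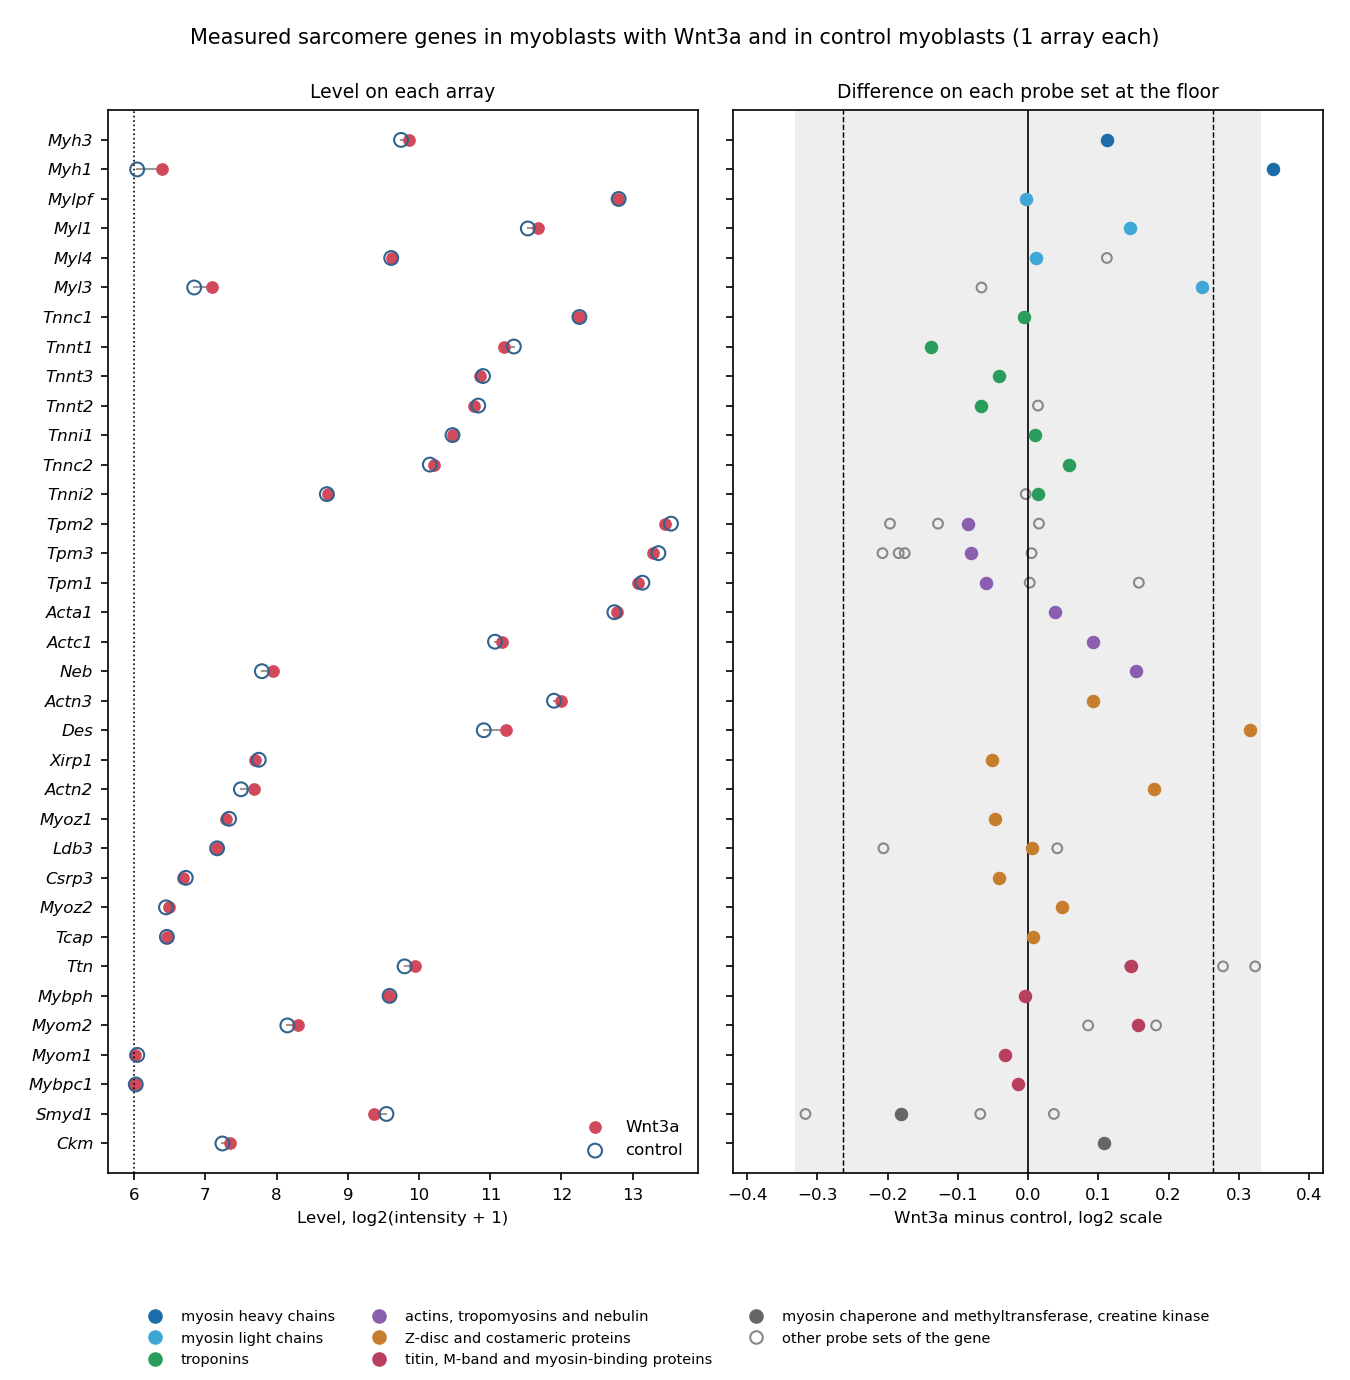
Levels (left, log2(intensity + 1)) of the 35 measured members on the Wnt3a array (filled) and the control array (open), and Wnt3a minus control differences (right, log2 scale) on the probe set with the highest mean (filled, by role) and on the other probe sets of the gene at the floor (open grey). The dotted line is the floor of 6, the dashed lines mark 1.2-fold and the grey band the central 95% of measured genes of any brightness. The 2 levels of a gene lie close together, and of the filled points Myh1 alone falls outside the band.

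The upstream sequences of 5 members are shown because these carry the largest or the most repeated differences, or stand in the same gene cluster. Myh1 and Des were past 1.2-fold, Ttn was higher on all of its probe sets at the floor, Smyd1 had the lowest value of the measured members, and Myh3 is the other measured gene of the myosin cluster that holds Myh1. Each run is the 250 bases before the gene's start in the RefSeq annotation of GRCm38.p6, on the gene's own strand. Capitals mark matches, on either strand, to CAGCTG (an E-box form bound by MyoD-family factors), the TATA box core TATAAA, the core of TCF and LEF binding CTTTGA, the M-CAT element of TEAD factors CATTCC, the CArG box of SRF or the MEF2 site.
Myh1, chr11:67199852-67200101 (+ strand): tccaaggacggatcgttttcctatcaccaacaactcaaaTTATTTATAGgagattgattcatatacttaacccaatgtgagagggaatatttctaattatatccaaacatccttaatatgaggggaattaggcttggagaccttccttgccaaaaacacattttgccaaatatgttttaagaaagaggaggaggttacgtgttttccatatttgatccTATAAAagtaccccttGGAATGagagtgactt
Des, chr1:75360042-75360291 (+ strand): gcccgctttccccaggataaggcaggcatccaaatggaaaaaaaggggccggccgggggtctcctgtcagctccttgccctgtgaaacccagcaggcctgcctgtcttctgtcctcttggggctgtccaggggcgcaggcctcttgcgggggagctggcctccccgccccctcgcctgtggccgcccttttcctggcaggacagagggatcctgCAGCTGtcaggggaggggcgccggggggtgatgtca
Ttn, chr2:76982548-76982797 (- strand): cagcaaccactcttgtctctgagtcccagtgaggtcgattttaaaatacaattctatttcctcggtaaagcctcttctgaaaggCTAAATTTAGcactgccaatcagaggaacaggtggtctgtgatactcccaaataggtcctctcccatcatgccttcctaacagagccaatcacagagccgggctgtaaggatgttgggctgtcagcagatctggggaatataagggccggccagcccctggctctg
Smyd1, chr6:71262282-71262531 (- strand): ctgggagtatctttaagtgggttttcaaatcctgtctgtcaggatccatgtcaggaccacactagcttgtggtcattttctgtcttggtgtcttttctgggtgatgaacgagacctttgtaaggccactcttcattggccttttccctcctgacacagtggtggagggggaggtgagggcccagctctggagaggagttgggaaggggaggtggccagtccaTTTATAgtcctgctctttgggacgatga
Myh3, chr11:67078050-67078299 (+ strand): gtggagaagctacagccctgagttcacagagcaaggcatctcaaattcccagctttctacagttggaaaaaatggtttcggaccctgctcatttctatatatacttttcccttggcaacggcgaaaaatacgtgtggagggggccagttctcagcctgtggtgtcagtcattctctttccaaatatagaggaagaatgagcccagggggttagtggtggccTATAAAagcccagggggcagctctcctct
In Myh1 the first capitals are a MEF2 match from -211 to -202, which overlaps a TATAAA match, and further on stand TATAAA from -32 to -27 and CATTCC on the opposite strand from -16 to -11. Des holds CAGCTG from -36 to -31 and Ttn a MEF2 match from -166 to -157. TATAAA lies from -29 to -24 in Myh3 and, on the opposite strand, from -28 to -23 in Smyd1. Of the 43 upstream windows of 36 members with an entry, 15 held CAGCTG (34.9%), against 13.0% of all 32851 windows. The CArG box was in 16.3% of the members' windows and 1.47% of all, the MEF2 site in 11.6% and 2.92%, CATTCC in 27.9% and 12.6%, and TATAAA in 23.3% and 12.4%. CTTTGA was in 6 of the members' windows (14.0%) and in 13.8% of all. Windows of 1 gene can overlap, and a match is only a match of letters.

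Of the myosin heavy chains, the motors of the thick filament, Myh3 and Myh1 were measured. Myh3, the embryonic isoform, stood at 9.86 with Wnt3a and at 9.75 in the control, a difference of 0.11 on 1 probe set. Myh1, the fast IIX isoform, stood at 6.39 with Wnt3a and at 6.04 in the control, a 1.27-fold difference (0.35). Both of its levels were close to the floor, and the other probe sets of Myh1, which stayed under the floor, gave -0.05 and 0, so the higher value rests on 1 probe set. The perinatal Myh8 reached at most 4.07, the fast Myh2 4.56 and Myh4 4.31, the slow Myh7 5.49 and the cardiac α isoform Myh6 3.76. These 5 genes were therefore below the floor on both arrays, and no fold is given for them. In the RefSeq gene order Myh3, Myh2, Myh1, Myh4 and Myh8 follow each other on chromosome 11 with no other protein-coding gene between them, and of this cluster Myh3 and Myh1 alone reached the floor. Myh6 and Myh7 are direct neighbours on chromosome 14, and 2 further probe sets that the annotation gives to both were left out. These were also below the floor.

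Among the myosin light chains, which stiffen the lever arm of the myosin head, the slow and ventricular Myl3 had the largest difference. Myl3 stood at 7.09 with Wnt3a and at 6.84 in the control, 1.19-fold higher (0.25), just inside the 1.2-fold limit. Its second probe set at the floor gave -0.07, so the probe sets of Myl3 did not share a sign. Myl1, the fast essential light chain, was at 11.67 with Wnt3a and at 11.53 in the control (0.15, 1 probe set). Myl4, the embryonic and atrial light chain, was at 9.62 with Wnt3a and 9.61 in the control, with 0.01 and 0.11 on its probe sets at the floor. Mylpf, the fast regulatory light chain, was at 12.80 on both arrays. The slow regulatory light chain gene Myl2 was below the floor, at 4.63 with Wnt3a and 4.72 in the control.

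The troponins, which make contraction depend on calcium, differed little between the arrays. Of 7 measured subunits 3 were higher and 4 lower, their median difference was -0.0053 and they ranged from -0.14 to 0.06. Tnnt1, the slow tropomyosin-binding subunit, had the largest difference, at 11.19 with Wnt3a and 11.33 in the control (-0.14, 1 probe set). Tnnt3, its fast counterpart, was at 10.86 with Wnt3a and 10.90 in the control, and Tnnt2, the cardiac isoform that embryonic skeletal muscle also uses, at 10.77 with Wnt3a and 10.83 in the control. The second probe set of Tnnt2 gave 0.01 and one below the floor 0.24, so that Tnnt2 turned positive (0.0639) when averaged over all its probe sets. Among the inhibitory subunits the slow Tnni1 was at 10.48 with Wnt3a and 10.47 in the control and the fast Tnni2 at 8.72 with Wnt3a and 8.71 in the control. The calcium-binding subunits were likewise near 0, with the slow and cardiac Tnnc1 at 12.25 on both arrays and the fast Tnnc2 at 10.21 with Wnt3a and 10.15 in the control. The cardiac inhibitory subunit gene Tnni3 was below the floor, at 4.85 with Wnt3a and 4.90 in the control. Its direct neighbour on chromosome 7 is Tnnt1, a gene above the floor on both arrays.

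On the probe sets with the highest mean, the sarcomeric actins were slightly higher with Wnt3a and the tropomyosins slightly lower. Each of these differences was below the pooled SD between probe sets of a gene (0.12). Acta1, the skeletal α-actin gene, was at 12.78 with Wnt3a and 12.74 in the control (0.04), and Actc1, the cardiac α-actin that is also expressed in developing skeletal muscle, at 11.16 with Wnt3a and 11.07 in the control (0.09). Neb, which encodes the thin-filament ruler nebulin, was at 7.95 with Wnt3a and 7.79 in the control (0.15). Each of these 3 values rests on 1 probe set.

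Tropomyosins wind along actin, and the same genes also give cytoskeletal isoforms that a 3′ probe set need not tell apart. Tpm2 was at 13.45 with Wnt3a and 13.54 in the control (-0.09), Tpm3 at 13.28 with Wnt3a and 13.36 in the control (-0.08), and Tpm1 at 13.08 with Wnt3a and 13.14 in the control (-0.06). Of the 5 probe sets of Tpm3 at the floor 4 were lower with Wnt3a, from -0.21 to -0.08, and 1 gave 0.0049. Of the 4 of Tpm2 3 were lower, from -0.20 to -0.09, and 1 gave 0.02. The probe sets of Tpm1 gave -0.06, 0.0023 and 0.16. Averaged over all its probe sets Tpm1 turned positive (0.0175). Without the probe sets whose suffix marks that they can match several transcripts, Tpm2 turned positive (0.0155) and Tpm3 was at -0.207.

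Titin was the member whose higher value was repeated on most probe sets. Ttn, the giant spring that spans the sarcomere from Z-disc to M-band, stood at 9.94 with Wnt3a and at 9.80 in the control (1.11-fold, 0.15). Its other probe sets at the floor gave 0.28, 0.15 and 0.32, and those below the floor 0.20 and 0.01, so all 6 were above 0. Of the 783 genes with at least 4 probe sets at the floor, 11.1% were higher on every one. Myom2, the M-band protein that crosslinks myosin in fast fibres, stood at 8.31 with Wnt3a and at 8.15 in the control, with 0.16, 0.09 and 0.18 on its probe sets at the floor. Its relative Myom1 was at 6.01 with Wnt3a and 6.04 in the control. Of the myosin-binding proteins Mybph was at 9.58 with Wnt3a and 9.59 in the control and the slow Mybpc1 at 6.01 with Wnt3a and 6.02 in the control, while the fast Mybpc2 was below the floor, at 5.36 with Wnt3a and 5.40 in the control. With Ttn, Myom2 and Myl4, 3 of 11 members with at least 2 probe sets at the floor were higher on all of them, against 23.5% of such genes, and none was lower on all, against 31.2%.

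Des had the largest difference of the Z-disc and costameric group and the second largest of all measured members. It encodes desmin, the muscle intermediate filament that links Z-discs to each other and to the membrane. Des stood at 11.23 with Wnt3a and at 10.91 in the control, a 1.25-fold difference (0.32). Of all measured genes 2.76% had a larger value. Its other probe set lay below the floor on both arrays and gave -0.09, so that the mean over its probe sets was 0.113.

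The α-actinins crosslink actin at the Z-disc. Actn2, found in all fibres, was at 7.68 with Wnt3a and 7.50 in the control (0.18), and Actn3, found in fast fibres, at 11.99 with Wnt3a and 11.89 in the control (0.09). Both were higher, each on 1 probe set. The other 6 measured genes of this group lay between -0.05 and 0.05. Myoz2, the slow and cardiac calsarcin, was at 6.50 with Wnt3a and 6.45 in the control, and the fast Myoz1 at 7.29 with Wnt3a and 7.33 in the control. Xirp1, an actin-binding protein of repair sites and junctions, was at 7.70 with Wnt3a and 7.75 in the control. Csrp3, the LIM protein MLP, was at 6.68 with Wnt3a and 6.72 in the control, and Tcap, the titin cap, at 6.47 with Wnt3a and 6.46 in the control. Ldb3, the PDZ-LIM protein ZASP, was at 7.17 with Wnt3a and 7.16 in the control, with 0.04 and -0.21 on its other probe sets. Myot, a Z-disc protein, was below the floor, at 4.57 with Wnt3a and 4.60 in the control. Within the group 6 of 9 measured genes were higher and 3 lower (median 0.0066).

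Smyd1, a muscle methyltransferase that acts on myosin and its assembly, had the lowest difference of the measured members. It stood at 9.36 with Wnt3a and at 9.54 in the control (1.13-fold lower, -0.18). On its other probe sets at the floor it gave -0.32, -0.07 and 0.04, so the sign was not shared. Without the probe sets that can match several transcripts, its value was -0.317 and it became the 1 member past 1.2-fold on the low side. The myosin chaperone gene Unc45b lay far below the floor, at 4.07 with Wnt3a and 4.49 in the control, and gets no fold. Ckm, the muscle creatine kinase that regenerates ATP at the M-band, was at 7.35 with Wnt3a and 7.24 in the control (0.11).

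Values of the isoform classes overlapped. The embryonic and perinatal isoforms had 4 of 5 genes measured, 3 higher and 1 lower, with a median difference of 0.05. Of the fast isoforms 9 of 12 were measured, 5 higher and 4 lower, with a median of 0.01. The slow and cardiac isoforms had 8 of 12 measured, 3 higher and 5 lower, with a median of -0.0096. The genes shared by fibre types, among which Myom2 was counted, had 14 of 16 measured, 9 higher and 5 lower, with a median of 0.02. Each class held values on both sides of 0. Of the fast and slow counterparts that were both measured, Tnni2 and Tnni1 gave 0.01 each, Tnnt3 gave -0.04 and Tnnt1 -0.14, and Tnnc2 gave 0.06 and Tnnc1 -0.0053. Myoz1 gave -0.05 and Myoz2 0.05, Myl1 gave 0.15 and Myl3 0.25, and Tpm1 gave -0.06 and Tpm3 -0.08. Over all 45 members the summed intensity was 76194 with Wnt3a and 76597 in the control. More of it came from the actins, tropomyosins and nebulin (39351 with Wnt3a and 40626 in the control) than from all other members together. By role, the sum was lower with Wnt3a for these genes, the troponins and the group of Smyd1, Unc45b and Ckm. It was higher for the other roles.

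**Figure D2:**
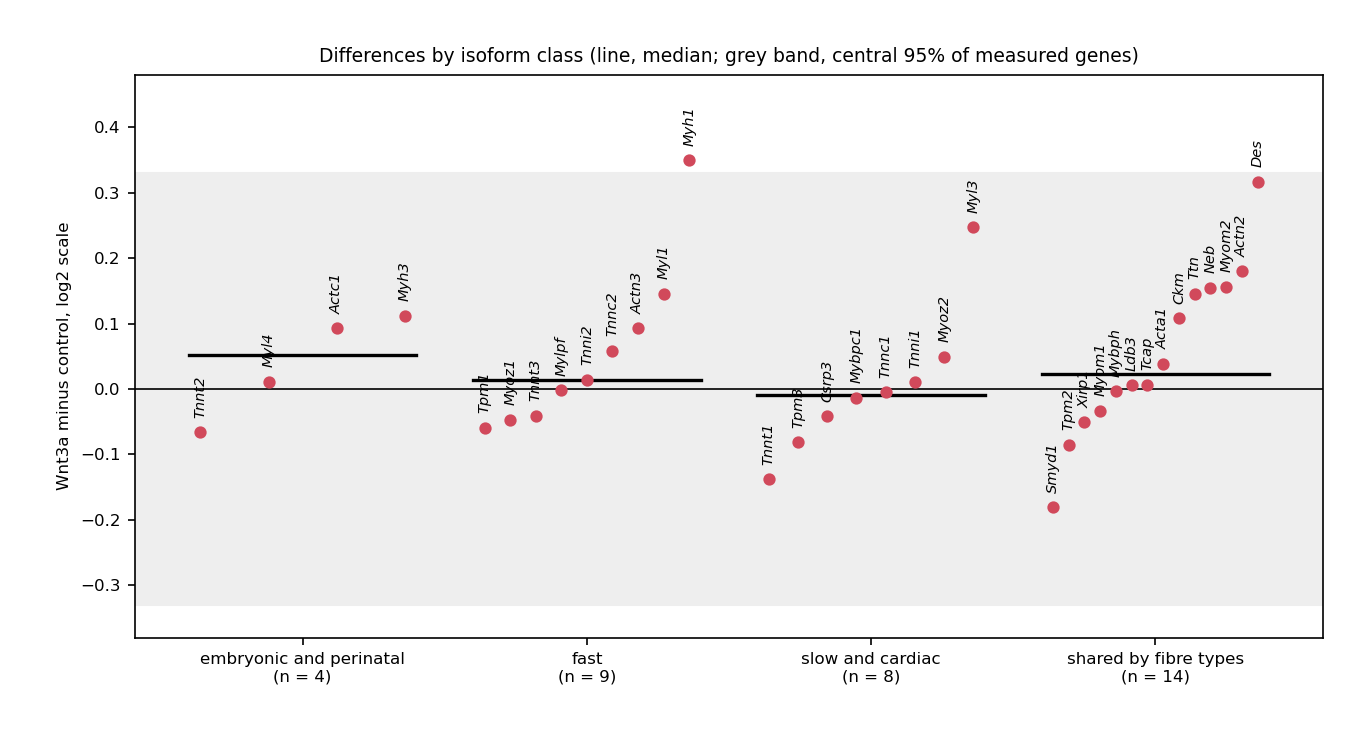
Wnt3a minus control differences on the log2 scale of the 35 measured members by isoform class, with 1 point per gene and the class median as a line. Each class lies on both sides of 0 and its median is between -0.0096 and 0.05, while the grey band marks the central 95% of measured genes.

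Members were also set beside other genes of like brightness. Among members with a mean of at least 10, 7 of 15 were higher (median -0.0023). Of the 3411 measured genes of that brightness, which scatter less than dimmer genes, 44.5% were higher, with a median of -0.01. Des was the 1 bright member past 1.2-fold, against 2.37% of these genes. Among members with a mean under 10, 13 of 20 measured were higher, with a median of 0.01, against 48.5% of the 7986 genes of that kind, whose median was 0. In the brightest band, from 12 upwards, 1 of 6 members was higher (Acta1), against 363 of 799 genes.

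**Figure D3:**
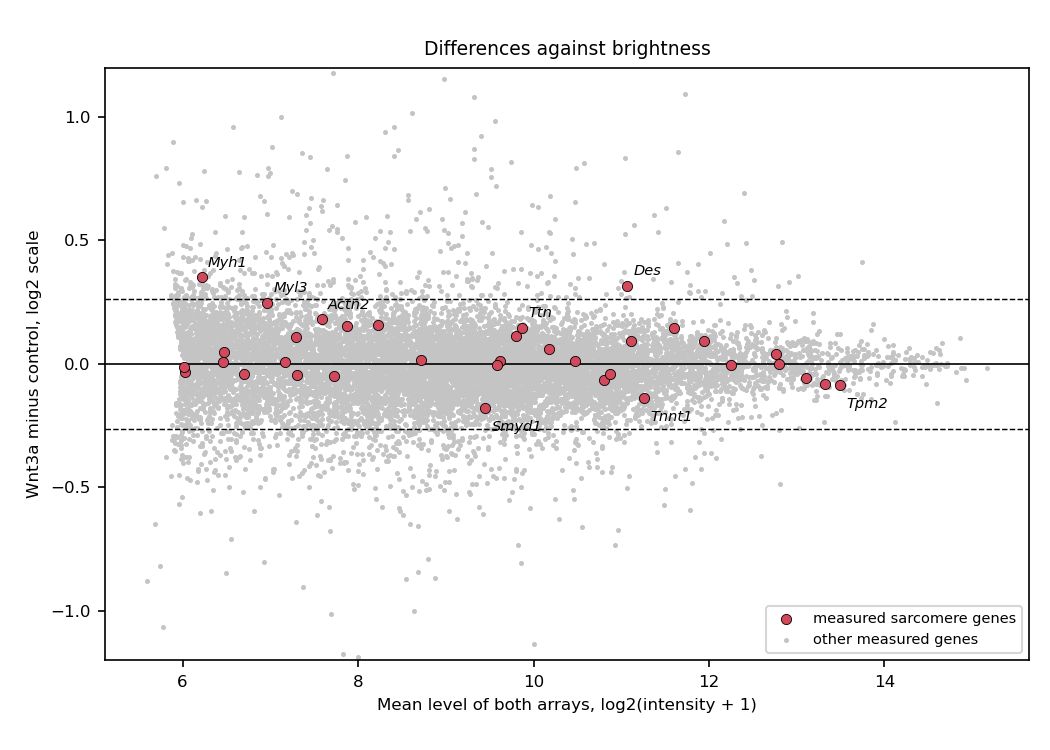
Wnt3a minus control differences (log2 scale) against the mean level of both arrays (log2(intensity + 1)), with the 35 measured members in red and the other measured genes in grey. The dashed lines mark 1.2-fold, and 25 measured genes lie outside the plotted range of 1.2 in either direction. Members lie within the cloud of other genes, with Myh1 and Des above the upper dashed line.

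Other genes of the sarcomere and Z-disc held larger single differences. Of 40 listed genes 26 were measured, 9 higher and 16 lower, with a median of -0.01, against 47.3% of all measured genes that were higher and their median of -0.0057. At least 1.2-fold higher was 1 gene, against 4.04% of measured genes, and 3 were 1.2-fold lower, against 4.55%. Klhl40, which stabilises nebulin and leiomodin, had the largest difference, at 8.52 with Wnt3a and 9.03 in the control (-0.51, 1 probe set). Trim54, a RING-finger protein of the sarcomere, was at 10.08 with Wnt3a and 10.42 in the control (-0.34, 1 probe set). Synpo2, an actin-binding protein of the Z-disc, was at 8.38 with Wnt3a and 8.80 in the control (-0.42, and -0.19 on its other probe set at the floor). Pdlim3, an α-actinin-associated LIM protein, was at 9.48 with Wnt3a and 9.11 in the control (0.37), and its relative Pdlim5 at 9.14 with Wnt3a and 8.94 in the control (0.20, from -0.16 to 0.34 on its 6 probe sets at the floor).

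The listed muscle transcription factors that were measured ranged from -0.50 to 0.75, against -0.18 to 0.35 over the measured members. Of 13 listed 11 were measured, with 3 at least 1.2-fold higher and 1 lower, against 4.04% and 4.55% of all measured genes. Myf6 was at 9.89 with Wnt3a and 9.14 in the control, Mef2a at 12.47 with Wnt3a and 11.89 in the control, and Myf5 at 12.45 with Wnt3a and 11.96 in the control. Myog, which drives entry into differentiation, was at 9.61 with Wnt3a and 10.11 in the control. Six4 was at 9.25 with Wnt3a and 9.50 in the control, and Srf, the factor of the CArG box, at 9.61 with Wnt3a and 9.69 in the control (-0.08, and 0.18 on its other probe set).

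Markers of other cells that also make contractile proteins were partly present. Of 10 cardiac markers 2 were measured, Nkx2-5 (6.47 with Wnt3a and 6.39 in the control) and Tbx20 (7.62 with Wnt3a and 7.44 in the control, with differences of -0.15 and -0.12 on its other probe sets), while Nppa, Myl7, Myh6 and Tnni3 were below the floor. The summed intensity of all 10 cardiac markers, the 8 below the floor included, was 520 with Wnt3a and 495 in the control. Of 12 smooth muscle and pericyte markers 6 were measured (Acta2, Tagln, Actg2, Smtn, Lmod1 and Cspg4), and the defining Myh11 and Myocd were below the floor. The summed intensity of all 12 was 11712 with Wnt3a and 9950 in the control. Most of it came from Acta2 (13.07 with Wnt3a and 12.75 in the control), which cultured myoblasts also express. The other probe sets of Acta2 lay below the floor. Of 12 fibroblast markers, 11 of them on the array, 3 were measured, and Pdgfra was below the floor. Col3a1 stood at 13.19 with Wnt3a and 13.42 in the control (-0.24, and -0.54 on its other probe set). Col1a2 was at 10.46 with Wnt3a and 10.53 in the control (-0.07, and -0.04 on its other probe set at the floor). Fbln1 was at 10.41 with Wnt3a and 10.46 in the control (-0.05, and -0.07 and 0.07 on its other probe sets). The summed intensity of all 11 fibroblast markers, the 8 below the floor included, was 12380 with Wnt3a and 14154 in the control. Most of each sum, and most of the gap between the sums, came from Col3a1. The part of these cells in the members' values was not tested.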

How the data were processed

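Gene expression in primary mouse myoblasts was measured with 2 Affymetrix arrays, 1 with Wnt3a and 1 control, from Trizol-extracted RNA and a 3′ labelling kit, per the labels' protocols. The deposited values are intensities, 1 for each probe set on each array. The submitters' processing notes name RMA, affy and limma, with no versions. The deposited intensities ran from 7.07 to 36604 with Wnt3a and from 7.09 to 37075 in the control, which is a linear scale, and the sources used here do not give the step that led to it. Values were used as log2(intensity + 1).

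Control probe sets (64) and probe sets of several or no genes were left out, and 34945 of 45101 probe sets remained. All 45 members kept their symbol through the Entrez identifier in the RefSeq table. A gene was measured where its probe set reached 6 in at least 1 array, which is a brightness limit only. With 1 array per group, differences were described beside the same over all measured genes. The members, lists and the 1.2-fold limit were chosen with earlier results of these data known. Every member is named, with Axin2 and up to 5 genes of the largest absolute difference of each further list; the measured markers are named, as are Srf and the markers cited as present or below the floor, which were chosen after their values were seen. A planned comparison of protein sequences was not run. Alternatives were a floor of 8, none, or one on the mean of both arrays, and averaging all probe sets of a gene. Another dropped the probe sets that can match several transcripts (suffixes _s_at, _x_at and _a_at). Further ones were a loess trend (span 0.3) removed, a median of 0, quantile normalization, spike-in scaling, no pseudocount and values raised to the floor. Limits of 1.1-fold and 1.5-fold were also used. The procedure was run on simulated data, made from the control array with known folds and little added noise. That run checked the calculation only and gives no measure of noise between arrays. The tools were Python 3.11.15 with pandas 2.3.3, numpy 2.4.6 and, for loess, statsmodels 0.14.6.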

Additional observations from a re-analysis of the deposited data

How the results depend on the processing

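Scaling on the spike-in controls moved every result that rests on the zero point. The members' median became 0.2, with 35 of 35 above 0 (90.4% of all measured genes) and 12 at least 1.2-fold higher (26.6% of all measured genes). The class medians became 0.241 (embryonic and perinatal), 0.203 (fast), 0.18 (slow and cardiac), 0.212 (shared by fibre types) and 0.178 (further sarcomere and Z-disc genes), with the median of all measured genes moved likewise. In the other alternatives every class median kept its sign and moved by less than 0.12. The count of members at least 1.2-fold higher was 1 with a floor of 8 and without probe sets that can match several transcripts. It was 0 with the mean of all probe sets or at 1.5-fold, and 8 at 1.1-fold. Myh1 has no value under these 3 settings of floor and probe sets, where it lay below the floor. The count at least 1.2-fold lower was 1 without a floor (Unc45b) and 2 at 1.1-fold. It was 1 without probe sets that can match several transcripts (Smyd1). With a floor of 8, 12 of 22 members were above 0. Of 360 single-gene values under alternatives 39 moved by 0.12 or more, 35 of them under spike-in scaling. The sign changed in 30, of which 15, in 8 members, came without spike-in scaling (Tnnt2, Tpm1, Tpm2, Ldb3, Mylpf, Tnnc1, Mybph and Tcap). No measure of noise between cultures, labellings or hybridisations exists here. No paired analysis was possible because each group has 1 array.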

Other observations

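Non-muscle and smooth muscle counterparts of the sarcomere genes, which build stress fibres and the cell cortex, differed by small amounts. Of 20 listed genes 17 were measured, 13 higher and 4 lower, with a median of 0.05, against 47.3% of all measured genes that were higher and their median of -0.0057. At least 1.2-fold higher was 1 of the 17, against 4.04% of measured genes. Acta2, the smooth muscle α-actin gene, had the largest difference (0.33), on a probe set with the suffix _s_at. Its other probe sets lay below the floor. They were at 4.96 with Wnt3a and 4.58 in the control, and at 4.69 with Wnt3a and 4.47 in the control. Actb, cytoplasmic β-actin, gave -0.16 on its probe set with the highest mean and 0.33 on another. Lmod1, a leiomodin of smooth muscle, was higher (0.18), while Actg2, the enteric smooth muscle actin (-0.22), and Myl9, a regulatory light chain (-0.12), were lower. All negative values here apart from that of Actg2 would turn positive under spike-in scaling.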
